A study of Mus musculus with 10 samples.

Results

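The heat shock and DnaJ chaperone genes were 70 genes of the 22103 that the probe sets named in this series. They were chosen by name alone: a symbol that begins with Hsp90, Hspa or Hspb followed by a number, Hspd1, Hspe1 or Hsph1, or a symbol that begins with Dnaja, Dnajb or Dnajc, on probe sets annotated to exactly 1 gene. These 70 genes had 1118 probe sets, of which 991 passed a filter on dim signal. A gene was tested when at least 3 of its probe sets passed, which left 62 members: 3 genes of the HSP90 family, 10 of HSP70, 1 of HSP110, 2 of HSP60 and HSP10, 5 small heat shock genes, 4 DNAJA, 10 DNAJB and 27 DNAJC genes. The other 8 are described at the end.

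The arrays compared amygdala from 3-month-old wild-type C57BL/6 mice with that of neuropsin-/- mice, a line crossed back to C57BL/6 for 12 generations. Neuropsin is the secreted serine protease that Klk8 encodes. Amygdalae of 15 mice per genotype gave 5 arrays per genotype, with the RNA of 3 mice pooled on an array, so that spread between single animals was not measured. The labels name no other allele, agent or treatment, no batch, and not the exons that the knockout lacks. Each value is a log2 level, a difference is knockout minus wild type, and errors are SD over n = 5 arrays unless given as SE.

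Array medians over all probe sets were 4.95 to 5.03. Wild-type arrays 4 and 5 stood apart on the first principal component of gene levels, at 20.5 and 23.5, with knockout arrays 4 and 5 next at 7.45 and 3.14 and the other 6 between -14.2 and -2.43. The mean of the 9 Klk8 probe sets was 5.52, 5.07, 4.78, 5.23 and 5.26 on wild-type arrays 1 to 5 and 5.21, 4.60, 5.19, 4.86 and 5.25 on knockout arrays 1 to 5, so the genotypes overlapped. Probe sets that lie outside the deletion check nothing. Of the markers listed for the tissue, 6 of 7 neuron genes, 5 of 5 inhibitory neuron genes and 5 of 5 basolateral amygdala genes had 3 or more probe sets above the filter. So did 16367 of the 22103 named genes, 6 of 6 choroid plexus markers and 7 of 8 hypothalamus markers. These counts therefore do not tell amygdala from other tissue.

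HSP70 proteins bind unfolded stretches of other proteins and release them in a cycle driven by ATP. J-domain proteins, which the Dnaj genes encode, deliver the clients and start ATP hydrolysis, and nucleotide exchange factors end the cycle. HSP90 acts later on kinases and steroid receptors, HSP60 with HSP10 folds proteins inside mitochondria, and small heat shock proteins hold unfolded proteins without ATP. Neurons depend on this network for the release machinery of synapses and for keeping aggregation-prone proteins soluble. Heat shock factor 1 drives the cytosolic genes under protein stress, and the unfolded protein response drives the genes of the endoplasmic reticulum.

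None of the 62 tested chaperone genes passed the test between the genotypes, and their differences were small. In limma's test over 16367 genes 4 genes passed an adjusted p of 0.05 (0.0244%), and 0 of the 62 members were among them. The smallest adjusted p of a member was 0.693, for Hspb6. At an unadjusted p under 0.05 there was 1 member of 62 (1.61%), against 6.98% of all genes. In 0 of the 62 members did the 5 knockout arrays lie all above or all below the 5 wild-type arrays, which was so in 1.55% of all genes. The differences ran from -0.23 to 0.20. The 95% interval lay within 0.5 of 0 on the log2 scale in all 62 tested members and within 0.3 in 42 of them, whereas 94.2% of all genes met the wider limit. These are limits on the mean of a gene's probe sets in whole tissue, where fewer cells of a type and less RNA per cell cannot be told apart.

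Most differences were above 0. The knockout mean was higher in 41 of 62 members (66.1%), against 49.3% of all genes, and the median difference was 0.04 for the members and -0.00 for all genes. That count was lower without wild-type arrays 4 and 5, on which 67.7% and 61.4% of all genes lay below their own mean. Of the 62 members, 50 and 52 did so. Leaving out low wild-type arrays raises the wild-type mean, which lowers such a count for genes at large as well. A fall was thus set by the choice of arrays, here and where families and genes are given below without them. Without those arrays the knockout mean was higher in 20 of 62 members (32.3%) and in 33.8% of all genes, and the median difference was -0.05 in both. Without wild-type array 5 alone it was higher in 30 members. Without arrays 4 and 5 of both genotypes, an alternative chosen after seeing the data, it was higher in 15 of 62 members (24.2%) and in 34.4% of all genes, with median differences of -0.05 in both.

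**Figure D1:**
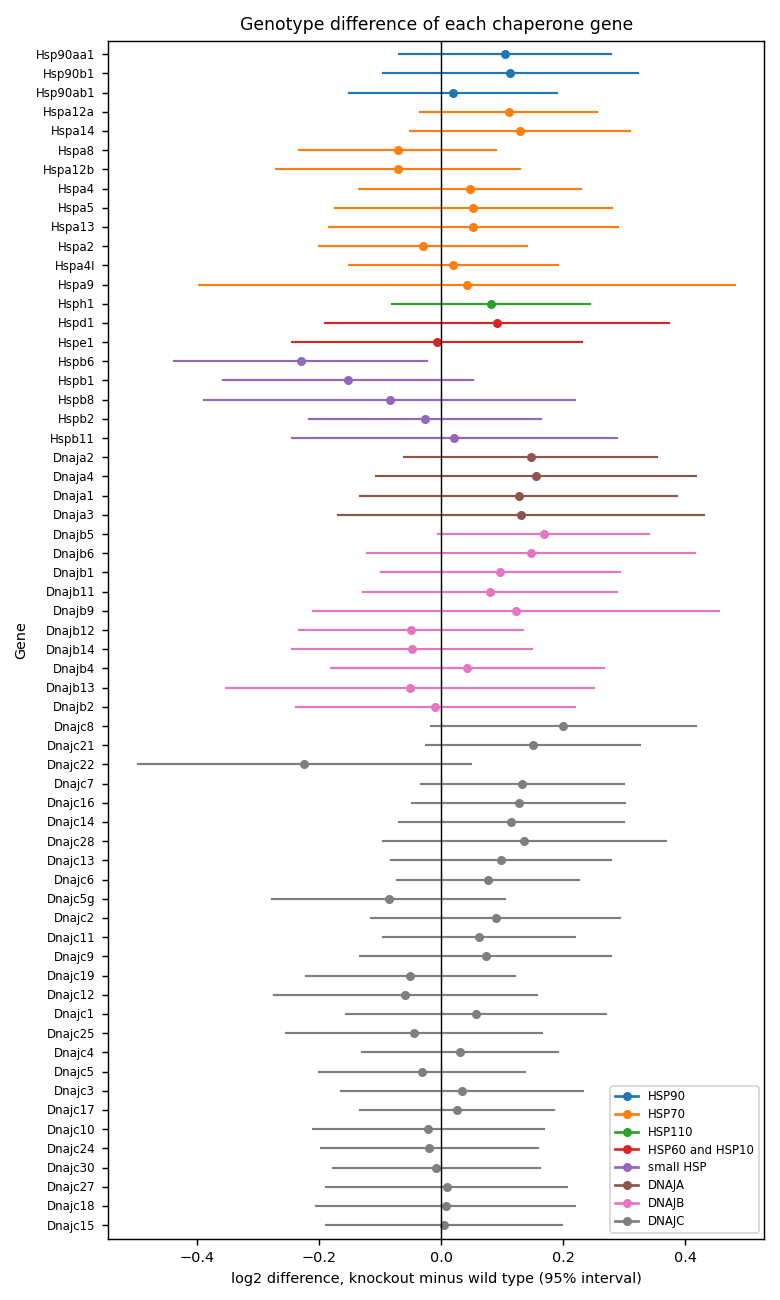
Difference in log2 level, knockout minus wild type, for each of the 62 tested chaperone genes (points), with the 95% interval of the limma fit (bars), coloured by family and ordered within a family by p. All 62 intervals lie within 0.5 of 0, and Hspb6 alone has an interval that does not reach 0.

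All 3 HSP90 genes that met the name rule were slightly higher in the knockout, with a median difference of 0.10 and 0 past the threshold. Hsp90aa1, the stress-inducible cytosolic form, was at 10.81, 10.81, 10.90, 10.89 and 10.59 on wild-type arrays 1 to 5. On knockout arrays 1 to 5 it was at 10.83, 10.85, 10.84, 10.93 and 11.06. Wild-type array 5 was the lowest of the 10 and knockout array 5 the highest, and the difference of 0.10 (SE 0.08) did not pass (limma adjusted p = 0.828). Hsp90ab1, the constitutive cytosolic form, was at 10.99 ± 0.14 in wild type and 11.01 ± 0.07 in knockouts, a difference of 0.02. Hsp90b1, the form of the endoplasmic reticulum, was at 10.09 ± 0.21 and 10.21 ± 0.09, a difference of 0.11 (SE 0.10). All 3 had their lowest value on wild-type array 5, and without wild-type arrays 4 and 5 they differed by 0.06, -0.07 and 0.00.

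Hspa8, the constitutive HSP70 that also strips clathrin from vesicles, was slightly lower in the knockout. Its levels were 12.09, 12.11, 12.14, 12.04 and 11.92 on wild-type arrays 1 to 5 and 11.86, 12.05, 11.92, 12.10 and 12.03 on knockout arrays 1 to 5. The genotypes overlapped, and the difference of -0.07 (SE 0.08, limma adjusted p = 0.869) had a 95% interval of -0.23 to 0.09. Of its 34 probe sets 28 were lower in the knockout, with 0 at an unadjusted p under 0.05. Probe sets of a gene share the same RNA and are not replicates. Hspa2, an HSP70 known mainly from testis, was at 7.65 ± 0.10 and 7.62 ± 0.11. Hspa4, Hspa4l and Hsph1, the large relatives of HSP70 that serve as nucleotide exchange factors, differed by 0.05, 0.02 and 0.08.

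Hspa12a and Hspa14 had the smallest p-values among the HSP70 genes. Hspa12a, an HSP70 with a divergent ATPase domain, was at 8.29, 8.47, 8.29, 8.26 and 8.30 on wild-type arrays 1 to 5. It was at 8.40, 8.45, 8.47, 8.45 and 8.40 on knockout arrays 1 to 5. Wild-type array 2 alone reached the knockout values, and the difference of 0.11 (SE 0.07) had a limma adjusted p of 0.757. Hspa14, the ribosome-associated HSP70, was at 7.21 ± 0.13 in wild type and 7.34 ± 0.11 in knockouts, a difference of 0.13 (SE 0.08, limma adjusted p = 0.778).

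The chaperones of the endoplasmic reticulum are of interest as a set because the unfolded protein response drives several of them together. The promoters of 3, Hspa5, Hsp90b1 and Dnajc3, held the endoplasmic reticulum stress element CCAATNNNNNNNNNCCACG on either strand. That was 3 of the 56 members (5.36%) with an entry in the RefSeq promoter table (GRCm38.p6, 250 bases before to 50 after a gene's start), against 0.137% of the 27025 genes in it. The stretches around the matches are shown 5′ to 3′ on the gene's strand, with the matches in capitals, because these genes carry the same element. They are chr2:34771985-34772083 on the plus strand for Hspa5, chr10:86705493-86705694 on the minus strand for Hsp90b1, which holds 2 matches in opposite orientation, and chr14:118937787-118937885 on the plus strand for Dnajc3.
Hspa5: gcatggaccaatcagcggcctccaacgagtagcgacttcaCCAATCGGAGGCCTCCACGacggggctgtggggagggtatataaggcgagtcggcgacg
Hsp90b1: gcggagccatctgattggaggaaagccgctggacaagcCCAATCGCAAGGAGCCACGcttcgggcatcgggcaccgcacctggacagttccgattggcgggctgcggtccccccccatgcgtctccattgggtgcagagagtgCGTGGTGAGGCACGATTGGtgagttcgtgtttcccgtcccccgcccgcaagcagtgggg
Dnajc3: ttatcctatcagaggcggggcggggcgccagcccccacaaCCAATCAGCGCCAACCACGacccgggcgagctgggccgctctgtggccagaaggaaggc

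A match describes the letters in the window and does not show that a factor binds there. None of these 3 genes passed the test. Hspa5, the HSP70 of the endoplasmic reticulum (BiP), was at 9.62, 9.64, 9.47, 9.40 and 9.13 on wild-type arrays 1 to 5 and at 9.48, 9.70, 9.32, 9.61 and 9.41 on knockout arrays 1 to 5. Wild-type array 5 was the lowest, the other 9 overlapped, and the difference was 0.05 (SE 0.11, limma adjusted p = 0.934). Dnajc3, a J-domain protein of the endoplasmic reticulum that also inhibits the stress kinase PERK, was at 8.24 ± 0.20 and 8.28 ± 0.06. The 3 genes had a median difference of 0.05, the same value as that of the 46 tested members with a promoter entry and no such element. On wild-type array 5 the median of their levels minus each gene's own mean was -0.35.

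Of the 12 members listed for the endoplasmic reticulum, 8 were higher and 4 lower in the knockout, with a median difference of 0.05 and 0 past the threshold. Dnajb9, a J-domain cofactor of BiP induced by the unfolded protein response, varied most. It was at 7.93, 8.09, 8.02, 7.49 and 7.34 on wild-type arrays 1 to 5 and at 7.98, 7.76, 8.25, 7.57 and 7.91 on knockout arrays 1 to 5. Low values thus occurred on wild-type arrays 4 and 5 and on knockout array 4, and the difference was 0.12 (SE 0.16). Dnajb11, another BiP cofactor, differed by 0.08 (SE 0.10) and Hspa13, a small HSP70 relative of this compartment, by 0.05 (SE 0.11).

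Of 10 members listed for mitochondria 7 were higher in the knockout, with a median difference of 0.04 and 0 past the threshold. They included the member of widest range. Hspa9, the HSP70 of the mitochondrial matrix (mortalin), was at 9.64, 8.46, 8.99, 8.61 and 8.32 on wild-type arrays 1 to 5 and at 9.00, 9.06, 8.49, 8.74 and 8.92 on knockout arrays 1 to 5. Wild-type array 1 stood above all other arrays and wild-type array 5 below them, a range of 1.32 that 0.654% of all genes reached. All 19 Hspa9 probe sets above the filter were higher on wild-type array 1 than on wild-type array 2, by 0.34 to 2.70 (median 1.17), and wild-type array 1 was the highest array in 17 of the 19. The genotype means were 8.80 ± 0.53 and 8.84 ± 0.23, a difference of 0.04 (SE 0.20) that became 0.25 without wild-type array 1 and -0.18 without wild-type arrays 4 and 5. Hspa9 has pseudogene copies in the reference gene table, so that its signal may be shared.

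Dnaja3, the J-domain partner of Hspa9 in mitochondria, showed the same contrast of wild-type arrays 1 and 2. Its levels were 7.51, 6.53, 7.06, 6.90 and 6.81 on wild-type arrays 1 to 5 and 7.03, 7.17, 7.04, 7.01 and 7.19 on knockout arrays 1 to 5. In 13 of 14 probe sets wild-type array 1 was above wild-type array 2. The wild-type SD was 0.36 and the knockout SD 0.09, and the difference was 0.13 (SE 0.14). Dnajb6, a J-domain protein of cytosol and nucleus that keeps polyglutamine proteins soluble, had the contrast as well, at 8.72 and 8.07 on wild-type arrays 1 and 2. It held in 28 of its 31 probe sets. The contrast was chosen after the values were seen and is not particular to these genes. With smaller medians of 0.33 and 0.23, it held in 27 of 29 probe sets of Dnaja1 and 17 of 20 of Hsp90b1. In Hspd1 it held in 5 of 17 and in Dnajb5 in 4 of 16. The other wild-type values of Dnajb6 were 8.69, 8.38 and 8.14, and the knockout values 8.44, 8.56, 8.42, 8.68 and 8.65.

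**Figure D2:**
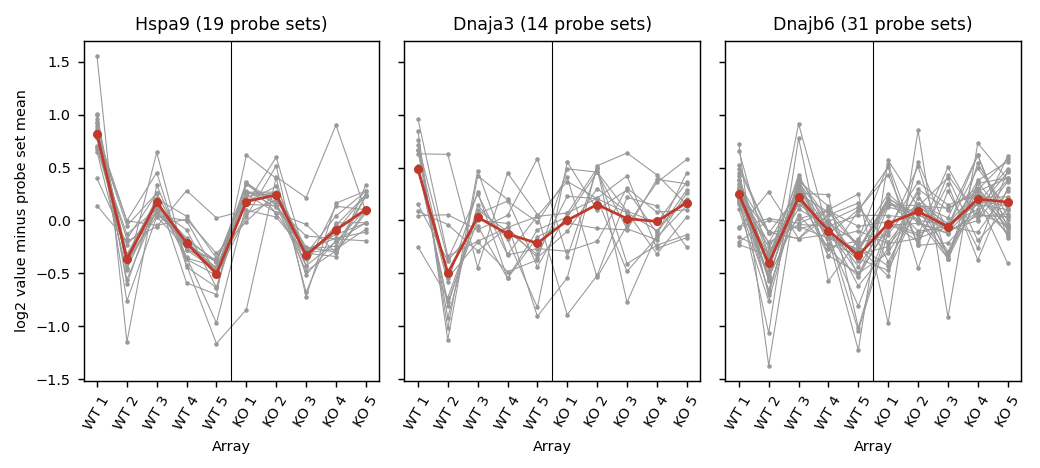
Log2 value minus the probe set's mean over 10 arrays for every probe set above the filter (grey lines) of Hspa9, Dnaja3 and Dnajb6, by array, with their mean in red. Wild-type array 1 lies above wild-type array 2 in all 19 Hspa9 probe sets, in 13 of 14 of Dnaja3 and in 28 of 31 of Dnajb6.

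Hspd1 and Hspe1 encode HSP60 and its lid HSP10 and lie head to head on chromosome 1, with 215 bases between 1 of the 2 annotated starts of Hspd1 and the start of Hspe1 in the RefSeq table. The other start of Hspd1 lies beyond that of Hspe1. The Hspe1 entry and 1 of the 2 Hspd1 entries held the heat shock element, searched as GAANNTTCNNGAA or TTCNNGAANNTTC. It occurred in 4 of 56 members (7.14%), Hspd1, Hspe1, Dnajb6 and Hsph1, against 0.662% of all genes in the table. The shared stretch chr1:55088053-55088082 (GRCm38.p6, plus strand, the strand of Hspe1) holds 2 overlapping matches, in capitals, and is shown because 1 stretch serves both genes. The Dnajb6 stretch chr5:29735812-29735897 (plus strand) is shown beside it with its match in capitals.
Hspd1 and Hspe1: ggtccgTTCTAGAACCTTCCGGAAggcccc
Dnajb6: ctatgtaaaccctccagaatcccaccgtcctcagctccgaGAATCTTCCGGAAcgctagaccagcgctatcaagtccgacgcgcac

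The match of Hsph1, TTCTGGAAAGTTC at chr5:149636288-149636300 on the minus strand, lies just after the gene's start. The members Dnajc11, Dnajc12, Dnajc18, Dnajc2, Dnajc22, Dnajc30, Dnajc5, Dnajc5b, Hsp90aa1, Hsp90ab1, Hspa13, Hspa8, Hspa9 and Hspb2 had no entry. The CRE core TGACGTCA, was in 1 member, Dnajc27 (1.79%), and in 2.03% of all genes.

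Levels of Hspd1 and Hspe1 were not parallel over arrays. Hspd1 was at 8.30, 8.55, 8.72, 8.42 and 8.17 on wild-type arrays 1 to 5 and at 8.15, 8.76, 8.44, 8.81 and 8.46 on knockout arrays 1 to 5. Hspe1 was at 7.34, 7.55, 7.57, 7.68 and 7.19 in wild type and at 7.60, 7.65, 7.18, 7.35 and 7.53 in knockouts. Knockout array 1 held the lowest value of Hspd1 and a high one of Hspe1, while knockout array 4 held the highest value of Hspd1 and a low one of Hspe1. The differences were 0.09 (SE 0.13) and -0.01 (SE 0.11). Hspe1 rests on 3 probe sets, and both genes have pseudogene copies in the reference table. The 4 genes with a heat shock element had a median difference of 0.09, against 0.05 for the 45 tested members with an entry and without it. The search took only exact matches within the window, so the 45 may hold other forms of the element. They include Hspb1, Dnaja1, Dnajb1 and Dnajb4, which are listed as heat shock factor targets, so the split does not separate targets from other genes. Of 11 measured genes listed as targets of heat shock factor 1, which include Hspd1 and Hspe1, 8 were higher in the knockout, with a median difference of 0.04.

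**Figure D3:**
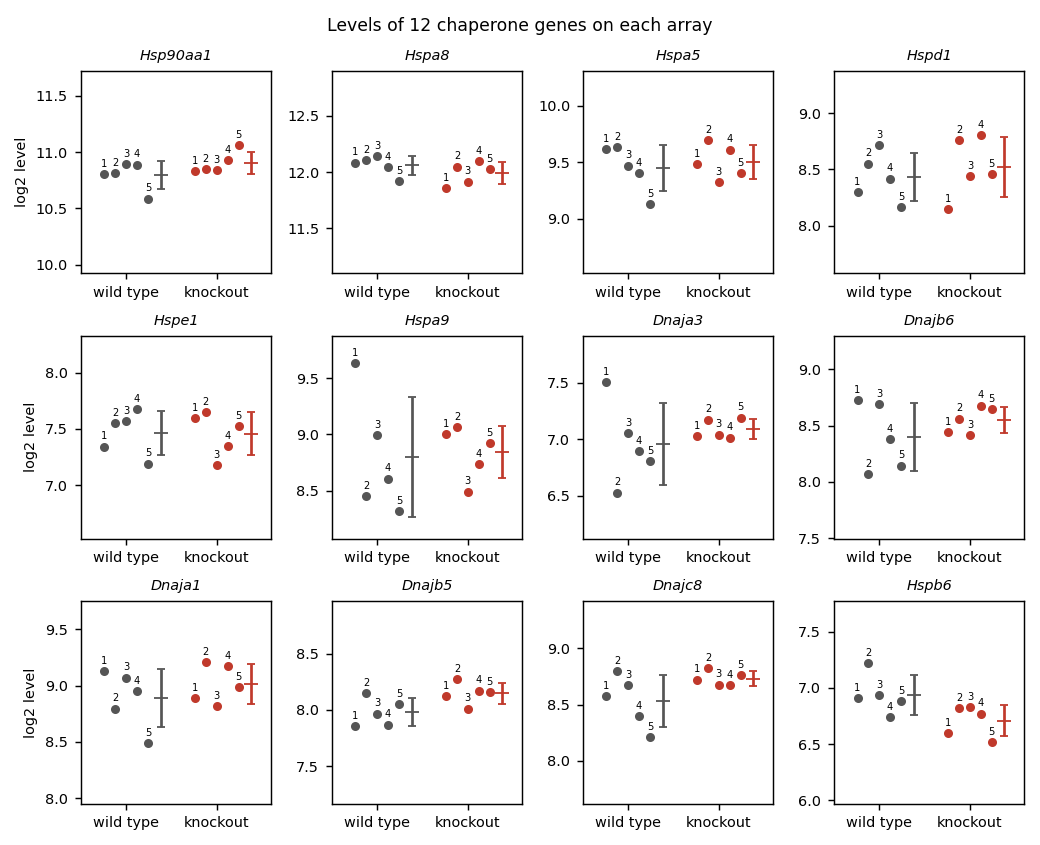
Log2 level of 12 chaperone genes on each array, numbered by replicate, for wild type (grey) and knockout (red), with mean and SD (n = 5) beside the points. Every panel spans 1.8 log2 units. Hspa9 and Dnaja3 spread widely within wild type. In Hspb6 only knockout points 1 and 5 lie below the lowest wild-type point, 6.74, and the other knockout points overlap with wild type.

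The small heat shock genes had the highest share of members lower in the knockout, 4 of 5, with a median difference of -0.08. Without wild-type arrays 4 and 5, 5 of 5 were lower and the median was -0.11, against -0.05 for all genes. Hspb6, a small heat shock protein known from smooth and heart muscle, was at 6.91, 7.22, 6.94, 6.74 and 6.88 on wild-type arrays 1 to 5. It was at 6.60, 6.82, 6.83, 6.77 and 6.52 on knockout arrays 1 to 5. Wild-type array 4 lay among the knockout arrays. The difference of -0.23 (SE 0.10, or 0.852-fold) did not pass (limma adjusted p = 0.693), and all 6 of its probe sets were lower in the knockout. Without wild-type arrays 4 and 5 the difference was -0.31 and did not pass either (limma adjusted p = 0.289). Hspb6 lies on chromosome 7, as Klk8 does. The other tested member on that chromosome is Dnajb13, a J-domain protein of sperm tails and cilia, which differed by -0.05.

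Hspb1 (HSP27) was at 6.63 ± 0.16 in wild type and 6.47 ± 0.15 in knockouts, a difference of -0.15 (SE 0.10), which became 0.11 when the median of the probe sets replaced their mean. Hspb8, which works with the co-chaperone Bag3 in clearing aggregates, was at 6.74, 7.42, 7.12, 6.63 and 6.57 in wild type and at 6.84, 6.88, 6.91, 6.80 and 6.63 in knockouts. Its wild-type range took in the whole knockout range, and the difference was -0.08 (SE 0.14). It was 0.05 without wild-type array 2 and -0.28 without wild-type arrays 4 and 5. Bag3 differed by -0.18 (SE 0.10). Cryab, the small heat shock gene of oligodendrocytes and astrocytes that falls outside the name rule, differed by -0.23 (SE 0.12, limma adjusted p = 0.733).

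Levels of the markers of other cell types are given beside these genes. All 8 measured oligodendrocyte markers were lower in the knockout, with a median difference of -0.28, 0 past the threshold and 2 at an unadjusted limma p under 0.05. Their mean level was 8.07 to 9.07 on wild-type arrays and 8.11 to 8.55 on knockout arrays. Of the smooth muscle and pericyte markers 5 of 7 were lower, with a median of -0.05 and mean levels of 7.04 to 7.16 and 6.97 to 7.17. Of the astrocyte markers 6 of 8 were lower, with a median of -0.03 and mean levels of 8.10 to 8.50 and 8.22 to 8.34. All 7 measured hypothalamus markers and all 6 choroid plexus markers were lower too, with medians of -0.49 and -0.32 and 0 past the threshold, and 5 hypothalamus and 0 choroid plexus markers were at an unadjusted limma p under 0.05. The mean level of the hypothalamus markers was 6.18 to 6.79 on wild-type arrays and 5.69 to 5.95 on knockout arrays, with no overlap. All 5 measured striatum markers were lower, with a median of -0.23 and 1 at an unadjusted limma p under 0.05. The 8 microglia markers were lower, with a median of -0.06, and the 6 measured neuron markers higher, with a median of 0.07, and 0 of either list was at an unadjusted limma p under 0.05 or past the threshold. The part of these cell types in the small heat shock values was not tested.

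Among J-domain genes the DNAJA family was higher in the knockout in 4 of 4 members, with a median difference of 0.14 and 0 past the threshold. Dnaja1, a main cytosolic partner of HSP70, was at 9.13, 8.80, 9.07, 8.95 and 8.49 on wild-type arrays 1 to 5 and at 8.89, 9.21, 8.82, 9.18 and 8.99 on knockout arrays 1 to 5. Wild-type array 5 was clearly the lowest, and 3 wild-type arrays lay inside the knockout range. The difference was 0.13 (SE 0.12, limma adjusted p = 0.854). Dnaja2 and Dnaja4, also cytosolic, differed by 0.15 (SE 0.10) and 0.16 (SE 0.12). Without wild-type arrays 4 and 5 the family's median was 0.04, with Dnaja1 at 0.02, Dnaja2 at 0.06 and Dnaja4 at 0.00.

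The DNAJB family had 6 of 10 members higher and a median difference of 0.06, against 3 of 10 and -0.08 without wild-type arrays 4 and 5. Dnajb5, a cytosolic relative of Dnajb1, was at 7.86, 8.15, 7.97, 7.87 and 8.05 on wild-type arrays 1 to 5 and at 8.12, 8.28, 8.01, 8.17 and 8.16 on knockout arrays 1 to 5. The knockout range began above 3 of the wild-type arrays, and the difference was 0.17 (SE 0.08, limma adjusted p = 0.718). It was 0.16 without wild-type arrays 4 and 5. Dnajb1, the classical heat-inducible HSP40, was at 7.24 ± 0.16 in wild type and 7.34 ± 0.12 in knockouts, a difference of 0.10 (SE 0.09) that became -0.01 without those arrays. Dnajb2, a neuronal form linked to the proteasome, and Dnajb4 differed by -0.01 (SE 0.11) and 0.04 (SE 0.10).

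Of the 27 tested DNAJC genes, whose products use the J domain in many settings, 18 were higher and 9 lower, with a median difference of 0.03. Without wild-type arrays 4 and 5, 8 were higher and the median was -0.04. Dnajc8, a J-domain protein of the splicing machinery, had the highest difference of all 62 members. It was at 8.58, 8.80, 8.67, 8.40 and 8.21 on wild-type arrays 1 to 5 and at 8.72, 8.83, 8.68, 8.67 and 8.76 on knockout arrays 1 to 5. The knockout arrays lay close together (SD 0.06), and wild-type arrays 4 and 5 were the lowest. The difference of 0.20 (SE 0.10, limma adjusted p = 0.718) was 0.05 without those arrays.

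Dnajc21, a factor in ribosome assembly, was at 7.49 ± 0.08 in wild type and 7.64 ± 0.14 in knockouts, a difference of 0.15 (SE 0.08). Dnajc22 differed by -0.22 (SE 0.13) on 3 probe sets. Of the synaptic J-domain genes, Dnajc5 differed by -0.03 (SE 0.08) and Dnajc6 by 0.08 (SE 0.07). Dnajc5, the cysteine string protein of synaptic vesicles, was at 9.37 ± 0.11 and 9.34 ± 0.10, and Dnajc6, the auxilin that brings Hspa8 to clathrin coats, was at 9.49 ± 0.09 and 9.57 ± 0.04. Dnajc13, a J-domain protein of endosomes, differed by 0.10 (SE 0.08).

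**Figure D4:**
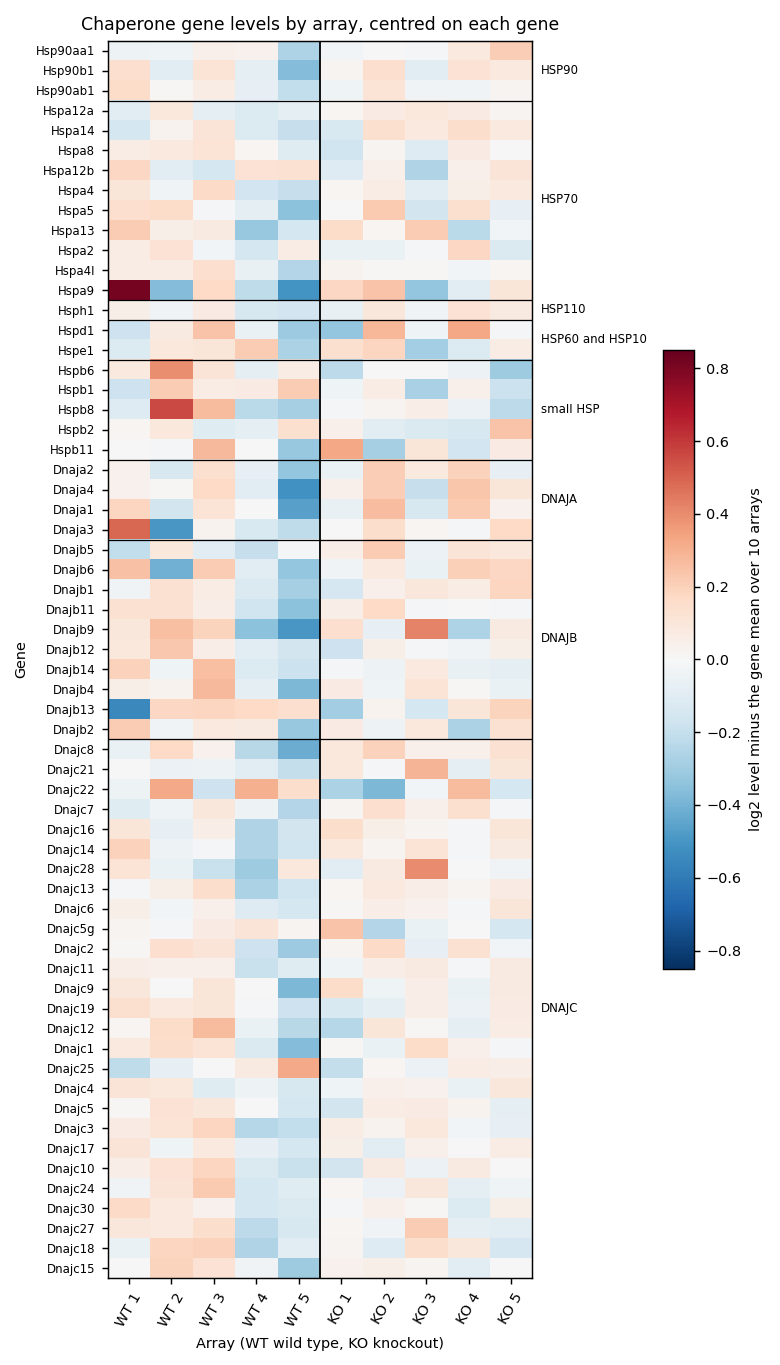
Log2 level minus the gene's mean over 10 arrays for the 62 tested chaperone genes (rows, grouped by family) on 5 wild-type and 5 knockout arrays (columns), red above and blue below the mean. The columns of wild-type arrays 4 and 5 are blue in most rows outside the small heat shock genes, and Hspa9 is darkest on wild-type array 1.

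In the median over members, the widest contrast lay between arrays of 1 genotype, wild-type arrays 3 and 5. In some single genes, such as Dnaja1, Dnajc8 and Hsp90aa1, it ran from wild-type array 5 to a knockout array. Wild-type array 5 held the lowest value of 32 of the 62 members (51.6%), against 21.4% of all genes. For wild-type array 4 the shares were 21.0% and 23.0%. Set against each gene's own mean, the members' median on wild-type arrays 1 to 5 was 0.06, 0.07, 0.10, -0.10 and -0.19, and on knockout arrays 1 to 5 it was 0.01, 0.05, 0.02, -0.00 and 0.06. The same median over all genes was -0.09 on wild-type array 4 and -0.06 on wild-type array 5. Wild-type array 5 was thus lower for the chaperone genes than for genes at large, with no test of the difference, and wild-type array 4 was alike for both.

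The low values of wild-type array 5 were found in most families. It was the lowest array in 3 of 3 HSP90 genes, 5 of 10 HSP70 genes, the 1 HSP110 gene and 3 of 4 DNAJA genes. The same was so in 6 of 10 DNAJB, 12 of 27 DNAJC and 2 of 5 small heat shock genes. It was so in 0 of the 2 genes of HSP60 and HSP10, although both lay below their own mean there, at -0.31 and -0.27. The family median on that array was -0.40 for DNAJA, -0.30 for DNAJB, -0.29 for HSP60 and HSP10 and -0.26 for HSP90. It was -0.17 for HSP70, -0.16 for HSP110 and -0.15 for DNAJC. The median of the small heat shock genes on that array was 0.06. The wild-type SD exceeded the knockout SD in 52 of 62 members (83.9%), against 73.2% of all genes.

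**Figure D5:**
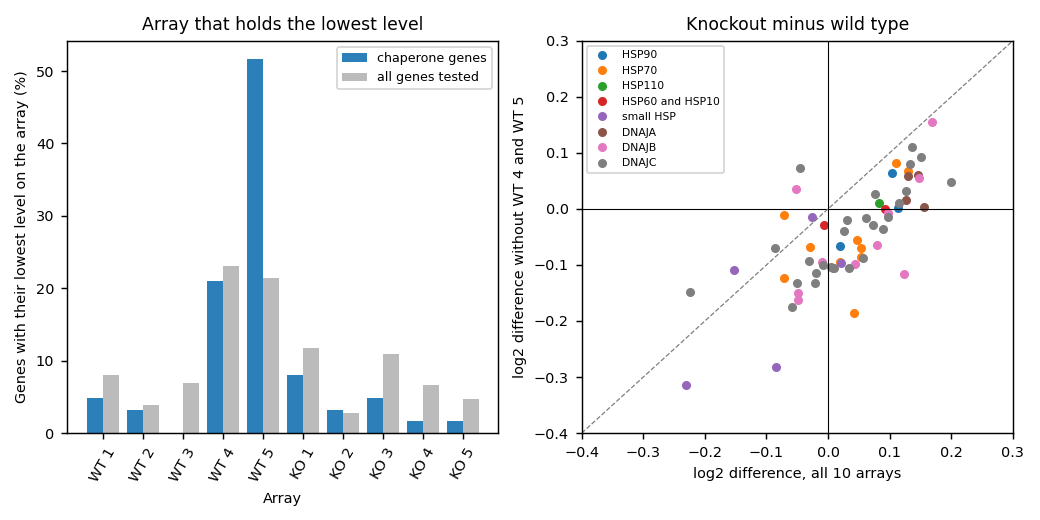
Left, share of genes with their lowest log2 level on each array, for 62 chaperone genes (blue) and all 16367 genes (grey), with 51.6% and 21.4% on wild-type array 5. Right, difference of each chaperone gene, knockout minus wild type, with all 10 arrays (x axis) and without wild-type arrays 4 and 5 (y axis), with a dashed line of equal values, below which most points lie.

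Some other lists were low on the same array and some were not. The mean of the 8 oligodendrocyte markers was 8.07 on wild-type array 5, the lowest of 10 arrays, and the mean of the 8 microglia markers was 7.14, also the lowest. The mean of 6 neuron markers was 9.86 there, with 9.83 on wild-type array 4 and 9.92 or more on the others. The means of 18 genes listed as HSP90 co-chaperones and of 14 chaperonin and prefoldin genes were lowest on wild-type array 5 too, at 8.30 and 8.24. The mean of the 7 smooth muscle and pericyte markers was 7.16 on that array, the highest of the wild-type arrays. The mean of the 6 choroid plexus markers was 7.40 there, against 6.56 on wild-type array 4. RNA quality is not given in the sources used here, and the part of these values in the low chaperone levels was not tested.

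Single probe sets, each covering about 1 exon, were tested too. In limma's test 15 of 628415 probe sets passed (0.00239%), and 0 of the 991 member probe sets did, with a smallest adjusted p of 0.751. At an unadjusted p under 0.05 there were 38 member probe sets (3.83%), 27 higher and 11 lower, against 5.97% of all. In 7 of the 991 member probe sets the genotypes did not overlap, where all probe sets gave 1.1%.

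The smallest p was at Dnaja1. Its probe set 4684830 was at 7.91, 7.81, 7.29, 7.52 and 6.91 on wild-type arrays 1 to 5 and at 8.07, 8.34, 7.99, 8.62 and 8.33 on knockout arrays 1 to 5. All knockout values were higher, and the difference of 0.78 (SE 0.21) compares with 0.13 for the gene (limma adjusted p = 0.751). Probe set 4534403 of Hsp90aa1 was at 10.25 ± 0.27 and 10.91 ± 0.36, a difference of 0.66 (SE 0.20) without overlap. Of the 48 Hsp90aa1 probe sets 38 were higher in the knockout, and all 4 at an unadjusted p under 0.05 were higher. Hspd1 at probe set 4697388 (0.49) and Dnajc6 at probe set 4692427 (0.47) also had every knockout array above every wild-type array. The same was so of Hspa13 at probe set 4885236 (0.37) and Hspa12a at probe set 5281567 (0.35). Dnajb12 at probe set 4614666 (-0.40) had every knockout array below every wild-type array.

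Relative use of exons within a gene passed limma's diffSplice test in 276 of 16367 genes (1.69%) and in 0 of 62 members, of which 7 had an unadjusted p under 0.05 (10.9% of all genes). With variances estimated separately per probe set it passed in 0.0367% of all genes and again in 0 members, with 1 member at an unadjusted p under 0.05 (5.42% of all genes). The smallest adjusted p-values were 0.0685 for Dnajc13 and 0.0958 for Hsp90aa1, which were 0.9999 and 0.959 with separate variances. These values were not firm when an array was left out, where 171 to 335 of all genes passed and 0 to 2 members did. Dnajc13 then passed with wild-type array 3 (0.000271) or knockout array 3 (0.00631) left out, and Hsp90aa1 with wild-type array 5 (0.0394) or knockout array 1 (0.00324) left out. Hspa5 passed without wild-type array 3 (0.0169), Hspa8 without wild-type array 5 (0.00615), Dnajc8 without wild-type array 1 (0.0473) and Dnajc2 without knockout array 3 (0.0286).

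The partners of the chaperones were read from the same fit. Of 72 measured partner genes 43 were higher and 29 lower in the knockout, with a median difference of 0.01, 0 past the threshold and 2 at an unadjusted limma p under 0.05. Of the 5 genes listed with the heat shock factors, Hsf1, Hsf2, Hsf4, Hsf5 and the factor-binding protein gene Hsbp1, 3 were higher. Hsf5 differed by -0.22 (SE 0.10) and Hsf4 by -0.16 (SE 0.08), with a limma adjusted p of 0.693 and 0.716. The Hsf5 difference was -0.01 without the intensity filter and -0.05 without wild-type arrays 4 and 5. Of 13 nucleotide exchange factors and regulators of HSP70, 7 were higher, with Hspbp1 at -0.12. Of 18 genes listed as HSP90 co-chaperones 13 were higher, with a median of 0.04. That list includes Trap1, which is the mitochondrial HSP90 and not a co-chaperone. The largest difference was 0.43 in Fkbp5, which inserts into the HSP90 complex of the glucocorticoid receptor (limma adjusted p = 0.630). Sugt1, a further HSP90 partner, was at 0.20 (SE 0.10) but at 0.04 without wild-type arrays 4 and 5.

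Of 14 chaperonin and prefoldin genes 8 were higher, with Pfdn6 at 0.23 (SE 0.11) and Vbp1 at 0.10 (SE 0.15). Of 17 genes of the unfolded protein response and of folding in the endoplasmic reticulum 9 were higher. Sdf2l1, a stress-induced gene of that compartment, was at -0.18 (SE 0.09), and the lectin chaperone Canx at 0.20 (SE 0.13). Of 6 other J-domain and small heat shock genes 4 were higher, with Gak, the auxilin of non-neuronal cells, at 0.07. Of 9 immediate early genes, which respond to stimulation, 4 were higher, with a median of -0.05.

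The 8 members below the filter rule were Dnajb3, Dnajb7, Dnajb8, Dnajc5b, Hspa1a, Hspb3, Hspb7 and Hspb9, several of them known as testis or muscle forms. Over all their probe sets the differences were -0.24 to 0.17. Hspa1a, a main heat-inducible HSP70, was at 5.04, 4.93, 4.84, 4.30 and 4.73 on wild-type arrays 1 to 5 and at 4.35, 5.03, 4.72, 4.88 and 4.45 on knockout arrays 1 to 5. Its values overlapped and straddled the filter of 4.94, and 2 of its 4 probe sets passed it. Another 6 probe sets were annotated to both Hspa1a and Hspa1l and differed by -0.52 to 0.66. No probe set named Hspa1b or Hspa1l alone, and signal of near-identical copies cannot be assigned to 1 of them.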

How the data were processed

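RNA of amygdala was hybridised to GeneChip Mouse Exon 1.0 ST arrays after removal of ribosomal RNA. Each deposited value is the log2 level of a probe set on an array, which the authors made by RMA in Affymetrix Expression Console, per the submitters' processing notes. For software versions and annotation build the entry is: not given in the sources used here. Scanner files were not used here.

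Of 1256831 probe sets, 318760 had 1 gene. Probe sets with a mean above the median of all, 4.94, were kept, and a gene's level is the mean of its probe sets, at least 3. limma version 3.58.1 (lmFit, eBayes, topTable's 95% intervals, diffSplice with Simes p) in R version 4.3.3 compared the 5 knockout with the 5 wild-type arrays over all genes or probe sets. Tests were two-sided, Benjamini-Hochberg adjusted over the whole table, with a threshold of 0.05. All fits were tested on simulated data. The number of arrays limits precision, and p-values measure the spread between pools.

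The members and the lists were chosen with earlier results of these data known. Named members are those past a threshold, the 3 of smallest p per family, the 6 of widest range, those on chromosome 7 and a list of well-studied chaperones, with 2 genes per partner list. Dnajb12, Dnajc2, Dnajc27 and the members below the filter were named after their values were seen. Alternatives were another quantile normalization, centring, filters, summaries, array weights, a trended and robust prior, a replicate block, symbols as annotated, and arrays left out. Promoters were matched by symbol.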

Additional observations from a re-analysis of the deposited data

Results flagged for a closer look

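Among 114 groups of 5 arrays looked at, 3 had an array far from the others of its genotype, and chance alone gives about 1 in 20. Dnajb13 was lowest on wild-type array 1, at 5.43, with the other 4 wild-type arrays at 6.12 to 6.16. Hspa12a was highest on wild-type array 2, at 8.47, with the others at 8.26 to 8.30. Hspa14 was lowest on knockout array 1, at 7.15, with the others at 7.36 to 7.43.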

How the results depend on the processing

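At the gene level 0 members passed under any of the 22 alternatives, with a smallest adjusted p of 0.289 to 0.920, and 0 member probe sets passed under any of their 17. The number of members higher in the knockout was 30 to 48 when 1 array was left out and 20 without wild-type arrays 4 and 5, where the median difference was -0.05. Without arrays 4 and 5 of both genotypes, chosen after seeing the data, it was 15, with a median of -0.050. The members called for exon use were 0 to 2 with 1 array left out, where 171 to 335 of all genes were called. The replicate number as a block gave 1 such member, Hspa5 (adjusted p = 0.0493), and 0 members at the gene level. Same-numbered arrays of the genotypes correlated at 0.08 to 0.41, with 4 of 5 pairs over 0.1 and 3 of 5 wild-type arrays closest to their own number, and wild-type arrays 4 and 5 correlated with knockout arrays 4 and 5 at 0.24 to 0.41. As 1 pair was not over 0.1, the numbers were not taken as pairs. This limit does not show that same-numbered arrays are independent. With the block the smallest limma adjusted p of a member at the gene level was 0.369, against 0.693 without it. Of 812 differences of named members under alternatives 0 passed, 79 changed sign and 11 moved by 1 SD or more. They were Hspe1 (0.23 without a filter), Hspa4l (-0.09 without wild-type arrays 4 and 5) 4 under the median over probe sets, Hspb1 (0.11), Dnajb1 (0.28), Hspa4l (-0.12) and Dnajc5 (-0.19), and 5 without arrays 4 and 5 of both genotypes, Dnajb1 (-0.06), Hspa8 (-0.17), Hsph1 (-0.03), Hspe1 (0.45) and Hspa4 (-0.08), where the filter was recomputed over the 6 arrays kept. Of 263 differences of named partners 0 passed and 5 moved by 1 SD or more, Hsf5 (-0.01 without a filter, -0.05 without wild-type arrays 4 and 5 and -0.01 without arrays 4 and 5 of both genotypes), Gak (0.16 under the median over probe sets) and Sugt1 (0.01 without arrays 4 and 5 of both genotypes). The cause was not tested. Signal near the filter limits what can be said of the 8 dim members.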
